A study of Medicago truncatula with 21 samples.

Results

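The subject is a set of 66 transcripts that were close to absent from wild-type seeds of the legume Medicago truncatula at 24 days after pollination (DAP) and present in seeds of the mutant line abi4-1 at the same age. The set was chosen by its values: below 3 in each of the 3 R108 libraries at 24 DAP and at least 10 in each of the 3 abi4-1 libraries at 24 DAP. Of 44316 nuclear gene identifiers, 68 met both bounds, which is 0.153% of them. A further condition left out 2 of these because they were below 3 in all mature R108 libraries and at least 10 in all 6 mature libraries of the mutant lines, which leaves 66. The 24 DAP difference between genotypes is therefore how the set was made, and it is described here with no test.

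ABI4 belongs to the AP2/ERF transcription factors and is known from Arabidopsis for its part in abscisic acid and sugar signalling in seeds and seedlings. A legume seed first forms its embryo and endosperm, then fills with storage protein, and then dries while it acquires desiccation tolerance, dormancy and longevity. Abscisic acid signalling is known to act through the filling and drying phases, in which large transcript groups are switched on and off.

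All plants were of the R108 background, in which the tobacco retrotransposon Tnt1 was used to make insertion lines. The wild type was R108, and the mutants were the Tnt1 lines NF19813 (abi4-1) and NF2525 (abi4-2). Whole seeds of R108 and abi4-1 were sampled at 13 DAP and 24 DAP and as mature seeds, and abi4-2 is represented by mature seeds. This gives 7 groups of 3 libraries, 21 in all. The mutant values at 13 DAP and 24 DAP, and so the tests at 13 DAP, thus rest on 1 mutant line. Tnt1 lines commonly carry insertions at several places, so at both ages the abi4 lesion and any other insertion in that line cannot be told apart. In whole seeds, more cells of a type and more RNA per cell cannot be told apart either.

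The values are normalized read counts, in which 1 read is worth 0.81 to 1.20, so a value is close to a number of reads. Library totals lay between 18365151 and 24032451. The 5 most abundant transcripts took 51.22 to 54.66% of each library at 24 DAP, whereas this share was 2.70 to 8.48% at 13 DAP and lay between 3.82 and 5.45% for mature seeds. The deposited values were scaled separately for each stage, so genotypes are compared within a stage. The identifiers, which all begin with MtrunA17_ and are given here without that start, follow the A17 genotype. None of them matched the table of gene names used here, so members are named by identifier, without function, and the level of the ABI4 transcript and of tissue markers was not examined.

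At 24 DAP the members' means in abi4-1 ran from 11.5 to 145, with a median of 20.6. In R108 their median at this age was 0.63 and the highest mean was 2.34, and 15 members were listed at 0 in all 3 libraries. Summed over the 66 members, the values were 56, 52 and 48 in R108 and 2014, 1832 and 1985 in abi4-1, or 2.96, 2.56 and 2.15 against 110, 88.8 and 98.3 per 1000000 of the library total. These distances are set by the bounds. Most members were of low abundance, since 41 of the 66 had their lowest abi4-1 value under 20.

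**Figure D1:**
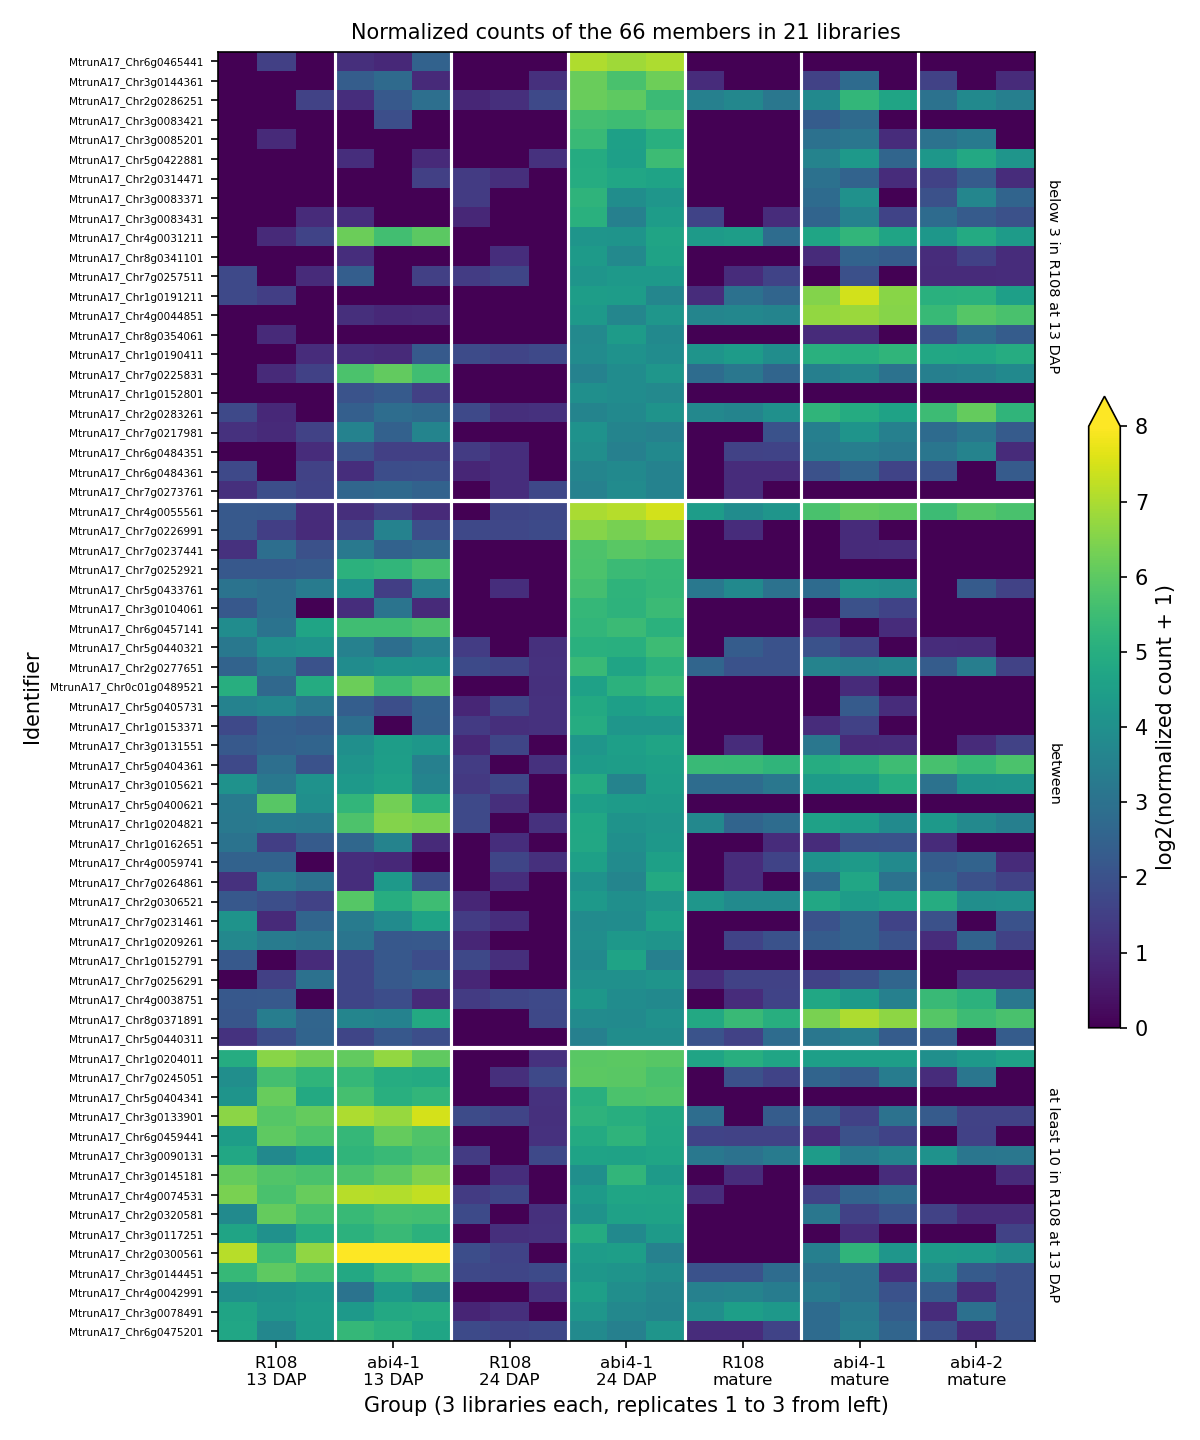
Values of the 66 members (lines) in the 21 libraries (columns, 3 per group), coloured by log2 of the deposited value plus 1 from dark (0) to yellow (8 or more), in blocks by the level in R108 at 13 DAP. At 24 DAP the R108 columns are dark and the abi4-1 columns green to yellow for every member because the set was chosen by them, while the 13 DAP and mature columns differ among members.

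The most abundant member at 24 DAP was Chr4g0055561, with 0, 2.21 and 2.33 in R108 and 125, 137 and 173 in abi4-1 (145 ± 24.9, SD, n = 3). At 13 DAP it was below 4 in all 6 libraries. In mature seeds it had 20.4, 13.9 and 17 in R108, 51.5, 66.3 and 62.5 in abi4-1 and 44.1, 56.6 and 51.3 in abi4-2, so both mutant lines lay above R108 there. Next came Chr6g0465441, with 0 in all 3 R108 libraries and 132, 115 and 127 in abi4-1 (125 ± 8.9, SD, n = 3) at 24 DAP. It had 0, 1.86 and 0 in R108 and 1.09, 0.91 and 4.73 in abi4-1 at 13 DAP and was listed at 0 in all 9 mature libraries. Its signal was thus almost entirely in the abi4-1 libraries at 24 DAP.

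Chr7g0226991 had 2.31, 2.24 and 2.44 in R108 and 93.4, 80.8 and 96.5 in abi4-1 at 24 DAP, and at most 1.01 in any mature library. Its abi4-1 values at 13 DAP, 2.24, 10.6 and 2.78, were uneven, and 1 of them reached 10. Chr3g0144361 had 0, 0 and 1.15 in R108 and 70.7, 50.7 and 73.6 in abi4-1 at 24 DAP. It was at 0 in every R108 library at 13 DAP and at 4.09, 5.76 and 0.95 in abi4-1, without overlap but at a level under the bound of 10. Chr7g0237441 (53.1, 60.3 and 55.6 in abi4-1) and Chr3g0083421 (47.7, 44.7 and 52.4) were at 0 in all 3 R108 libraries at 24 DAP. Neither reached 10 at the other stages in any library.

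Other abundant members were also present in wild-type seeds at another stage. Chr1g0204011 had 0, 0 and 1.19 in R108 and 60.5, 62 and 59.1 in abi4-1 at 24 DAP, but 29.8, 95.1 and 77.2 in R108 and 67.2, 104 and 65.3 in abi4-1 at 13 DAP. In mature seeds it had 24.7, 31.1 and 25.2 in R108, 21.9, 21.5 and 21.5 in abi4-1, and 14.9, 18.6 and 22.8 in abi4-2. R108 thus held this transcript at 13 DAP and in mature seeds and nearly lacked it at 24 DAP. Chr7g0245051 (62.4, 60.3 and 51.2 in abi4-1 at 24 DAP) had 14.5, 48.2 and 36.6 in R108 and 38.8, 30.3 and 28.9 in abi4-1 at 13 DAP. Chr5g0404341 (32, 51.7 and 54.3 in abi4-1 at 24 DAP) had 16.7, 68.8 and 27.9 in R108 and 49.4, 32.2 and 37.5 in abi4-1 at 13 DAP and was at 0 in all 9 mature libraries. For these 2 members the genotypes overlapped at 13 DAP. Chr2g0286251 (70.7, 64.1 and 43.1 in abi4-1 at 24 DAP) was instead a transcript of mature seeds, with 10.2, 12 and 8 in R108, 13, 38 and 24.6 in abi4-1 and 7.03, 12.9 and 9.88 in abi4-2.

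The level in R108 at 13 DAP, which the choice of members did not use, divided the set. In R108 at 13 DAP, 15 members were at 10 or more in all 3 libraries, 23 were below 3 in all 3, and 28 lay between. Over all nuclear identifiers, 47.7% were at 10 or more in all 3 of these libraries, against 22.7% of the members. Below 3 in all 3 were 39.2% of all nuclear identifiers and 34.8% of the members, so this class was not more frequent in the set. In abi4-1 at 13 DAP, 27 members (40.9%) were at 10 or more in all 3 libraries, against 48.1% of all nuclear identifiers. In mature R108 seeds the members at 10 or more in every library numbered 9, or 13.6% against 38.7% of all.

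**Figure D2:**
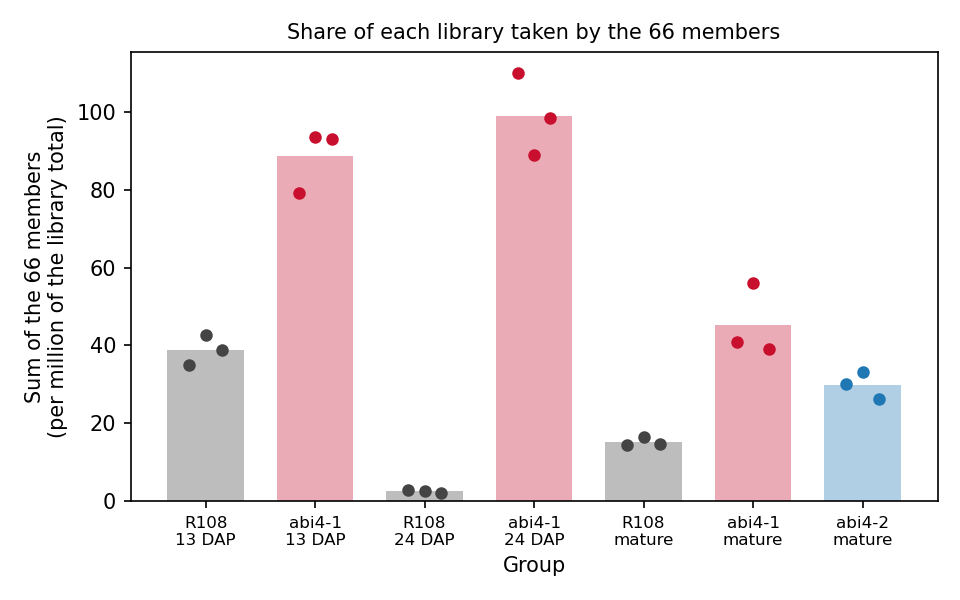
Sum of the 66 members per 1000000 of the library total in each of the 7 groups, with 1 point per library and bars at the group means. The 13 DAP points lie at 35 to 42.6 in R108 and 79.2 to 93.6 in abi4-1, the choice of members fixes the gap at 24 DAP, and both mutant lines lie above R108 in mature seeds.

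The 15 members present in R108 at 13 DAP had a median of 43.4 in R108 and 42.8 in abi4-1 at that age. This class was cut on the R108 values at 13 DAP, so these medians are not read as a comparison of genotypes. At 24 DAP the median of the 15 members in abi4-1 was 23. It is on the separate scale of that stage and is not compared between ages. Of the 15 members, 14 were at 10 or more in all abi4-1 libraries at 13 DAP. In mature R108 seeds 9 of the 15 were below 3 in every library, 4 lay between, and 2 (Chr1g0204011 and Chr3g0078491) were at 10 or more. Chr3g0133901 had 97, 58.8 and 68.7 in R108 and 137 ± 35 (SD, n = 3) in abi4-1 at 13 DAP, with every abi4-1 library above every R108 library, then 2.55, 2.13 and 1.17 in R108 and 35.3, 31.4 and 27.6 in abi4-1 at 24 DAP. Chr3g0145181 had 67.9, 55.8 and 50.5 in R108 and 52, 63.2 and 87.5 in abi4-1 at 13 DAP, then 0, 1.08 and 0 against 14.8, 37.5 and 19.3. In R108 both were abundant at 13 DAP and near 0 at 24 DAP, whereas in abi4-1 they were above 10 at both ages, at 24 DAP by the choice of members.

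The 23 members below 3 in R108 at 13 DAP had medians of 0.333 in R108 and 2.02 in abi4-1 at that age, and of 18.5 in abi4-1 at 24 DAP. As above, the classes were cut on the R108 values at 13 DAP. Their medians at that age are not read as a comparison of genotypes. Of these 23, 11 were below 3 in all abi4-1 libraries at 13 DAP too, 10 lay between and 2 were at 10 or more in all 3. In mature seeds their median was 0.671 in R108, 5.93 in abi4-1 and 5.24 in abi4-2. The 28 members between had medians of 4.37 in R108 and 8.35 in abi4-1 at 13 DAP, 20.8 in abi4-1 at 24 DAP, and 0.673, 3.34 and 1.48 in mature R108, abi4-1 and abi4-2.

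Across stages, 15 members were below 3 in all 9 R108 libraries. Another 22 were at 10 or more in every R108 library at 13 DAP or in every mature one. No member was below 3 in all 18 libraries outside the abi4-1 group at 24 DAP. In abi4-1 itself, 7 members were at 10 or more in every library at all 3 stages, among them Chr4g0031211, Chr1g0204821, Chr2g0306521, Chr1g0204011 and Chr8g0371891. The stages were scaled separately, so the bounds of 3 and 10 do not mark the same level at each stage. Shares over all identifiers were not computed for these counts, which are descriptions.

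The order of the stages within abi4-1 depended on the scaling. The choice of members required at least 10 in every abi4-1 library at 24 DAP, which favours 24 DAP in both comparisons, so the counts are a description, set beside the 18328 nuclear identifiers that met the same requirement. As deposited, 37 members were higher at 24 DAP than at 13 DAP without overlap (against 8.62% of those identifiers) and 19 were lower (84.2%). After the 21 libraries were brought to 1 shared scale by median of ratios, these counts were 52 (33.7%) and 3 (36.5%). Against mature abi4-1 seeds, 48 members were higher at 24 DAP (35.2%) and 8 lower (54.6%) as deposited. On the shared scale 55 were higher (51.4%) and 3 lower (37.5%). On that scale the median member mean in abi4-1 was 4.46 at 13 DAP, 36.9 at 24 DAP and 4.15 in mature seeds.

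The 13 DAP libraries give the only comparison of abi4-1 with R108 that took no part in choosing the members. Over all nuclear identifiers with at least 10 in at least 1 of the 6 libraries, abi4-1 lay above R108 without overlap in 9.62% and below it in 9.13%. Among the 37 members that reached 10, abi4-1 lay above in 17 (45.9%) and below in 2 (5.41%). Of the 37, 14 reached 10 only in abi4-1, which favours a higher value there, and 10 of these 14 lay above without overlap. Among the 23 members that reached 10 in at least 1 R108 library, abi4-1 lay above in 7 (30.4%), against 8.88% of all identifiers with the same property. The summed values of the members at 13 DAP were 842, 917 and 898 in R108 and 1666, 2000 and 2023 in abi4-1. Chr2g0300561 alone made up 4.81 to 16.6% of the R108 sums and 19.2 to 27.1% of the abi4-1 sums, and without it the sums were 703, 873 and 797 against 1345, 1459 and 1495.

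Limma on log2(value + 1), over the 22499 identifiers with at least 10 in at least 3 of the 6 libraries, called 283 identifiers higher in abi4-1 at 13 DAP (1.26%) and 271 lower (1.20%) at an adjusted p under 0.05. Of the 66 members, 30 could be tested, and 8 of them were called higher and 0 lower. Passing the minimum through abi4-1 alone favours a difference in this direction. It held for 9 of the tested members, of which 6 were called, and for 6 of the 8 called, so the count of 8 is not read against the share of all identifiers. Without the minimum on low values limma tested 65 members and called 7 higher, against 0.899% of the 33714 identifiers tested. The other 22 tested members did not pass the threshold, which does not show that they were equal in the genotypes.

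**Figure D3:**
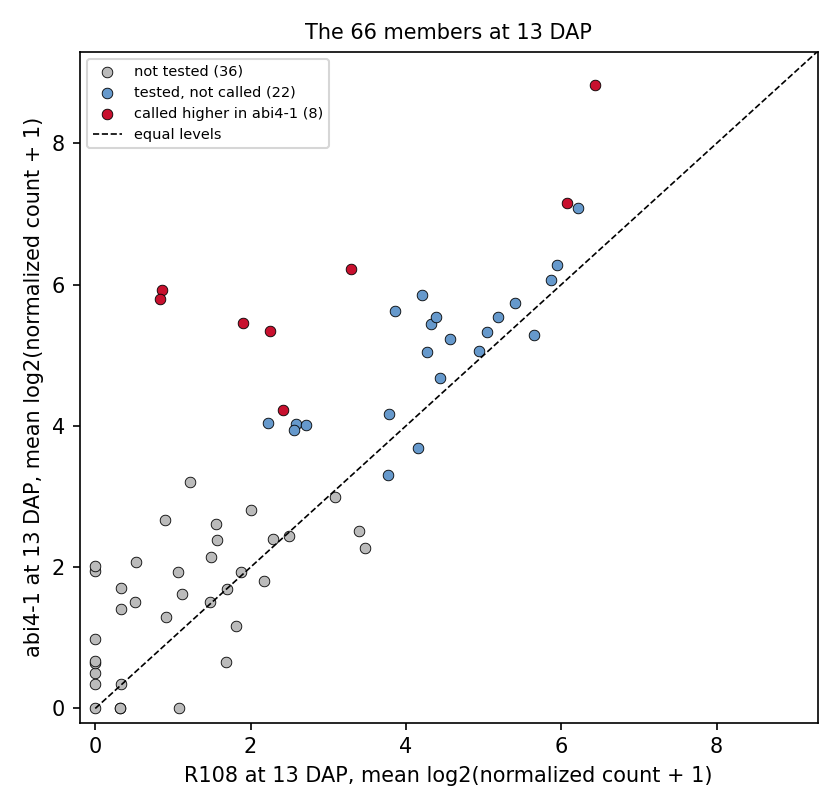
Mean log2(value + 1) of each of the 66 members at 13 DAP in R108 (x axis) and abi4-1 (y axis), coloured by whether limma did not test it (36), did not call it (22) or called it higher (8). The dashed line marks equal levels, and all 8 called members lie above it, 6 of them with R108 means below 10.

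The largest differences at 13 DAP were in members that R108 almost lacked. Chr4g0031211 had 0, 0.95 and 2.04 in R108 and 72, 47.1 and 62.4 in abi4-1, a log2 difference of 5.07 ± 0.48 (SE, n = 3 per group; limma adjusted p = 0.00119). Chr7g0225831 had 0, 0.92 and 1.94 in R108 and 52, 67.2 and 46.2 in abi4-1, a log2 difference of 4.96 ± 0.47 (SE; limma adjusted p = 0.00124). With R108 at 0 to about 2 reads, the size of these differences depended on the pseudocount: with 0.1 and 5 in place of 1 they were 6.62 and 3.45 for Chr4g0031211 and 6.52 and 3.33 for Chr7g0225831. In both, every abi4-1 library stood far above every R108 library at 13 DAP. At 24 DAP abi4-1 had 16.9, 16.5 and 24.4 for Chr4g0031211 and 10.7, 13.9 and 17.2 for Chr7g0225831, while R108 was at 0. The stages were scaled separately, so the abi4-1 levels at the 2 ages are not compared. In mature seeds the genotypes were closer: Chr4g0031211 had 19.5, 21.1 and 6.08 in R108, 24.9, 37.1 and 24.4 in abi4-1 and 17.8, 28.4 and 19.9 in abi4-2, and the R108 and abi4-2 libraries overlapped. Chr7g0225831 had 6.17, 8.03 and 5.07 in mature R108, 9.97, 11.7 and 7.13 in abi4-1 and 9.9, 10.8 and 12.9 in abi4-2, where every abi4-2 library lay above every R108 library and abi4-1 overlapped with R108.

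Chr2g0306521 had 3.63, 2.77 and 1.99 in R108 and 57.7, 30.6 and 45 in abi4-1 at 13 DAP (log2 difference 3.56 ± 0.37, SE; limma adjusted p = 0.00194). Chr7g0252921 had 3.64, 3.64 and 3.96 against 34.4, 37.3 and 48.6 (3.10 ± 0.31, SE; limma adjusted p = 0.0015). Chr1g0204821 had 8.47, 9.22 and 8.78 against 53.6, 89.8 and 82.2 (2.92 ± 0.28, SE; limma adjusted p = 0.00119). With a pseudocount of 5 these differences were 2.63, 2.35 and 2.51. These 3 members differed in mature seeds. The values below are as deposited, scaled separately per stage, so levels at 13 and 24 DAP are not compared. Chr7g0252921 had 51.8, 43 and 39.9 in abi4-1 at 24 DAP and was at 0 in all 9 mature libraries. Chr2g0306521 and Chr1g0204821 were at 14.8 to 18.6 and 16.4 to 26.4 in abi4-1 at 24 DAP and were present in mature seeds of every genotype. All 5 passed the minimum through abi4-1 alone. Without that minimum the limma adjusted p was 0.000806 for Chr4g0031211, 0.000849 for Chr7g0225831, 0.00191 for Chr2g0306521, 0.00198 for Chr7g0252921 and 0.00122 for Chr1g0204821. With the minimum and the replicate number as a block it was 0.00293, 0.00288, 0.00392, 0.00461 and 0.00271, in the same order.

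The other 3 calls were smaller or less stable. Chr2g0300561 had 140, 44.1 and 101 in R108 and 321, 542 and 529 in abi4-1 at 13 DAP, a log2 difference of 2.39 ± 0.39 (SE; limma adjusted p = 0.0192). This member was the most abundant at 13 DAP in both genotypes, and at 24 DAP it had 2.67, 2.05 and 0 in R108 beside 20.2, 21.2 and 10.4 in abi4-1. Chr4g0074531 had 82.8, 50.5 and 70.3 against 140, 133 and 153 (1.08 ± 0.20, SE; limma adjusted p = 0.0312), and Chr3g0131551 had 3.67, 4.54 and 4.93 against 14.9, 21 and 17.8 (1.81 ± 0.36, SE; limma adjusted p = 0.0386). Leaving out R108 replicate 3, abi4-1 replicate 2 or abi4-1 replicate 3 ended each of these 3 calls, with adjusted p of 0.069, 0.0687 and 0.111 for Chr2g0300561, 0.115, 0.0865 and 0.164 for Chr4g0074531, and 0.118, 0.147 and 0.169 for Chr3g0131551. Leaving out abi4-1 replicate 1 ended the last 2, at 0.109 and 0.103, and leaving out R108 replicate 1 ended that of Chr3g0131551, at 0.0982. Chr4g0074531 was also lost in a fit of all 21 libraries (0.215). Chr3g0131551 was lost there (0.0686), without the minimum on low values (0.0568) and with the replicate number as a block (0.0531). With that block the limma adjusted p was 0.0234 for Chr2g0300561 and 0.0223 for Chr4g0074531.

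**Figure D4:**
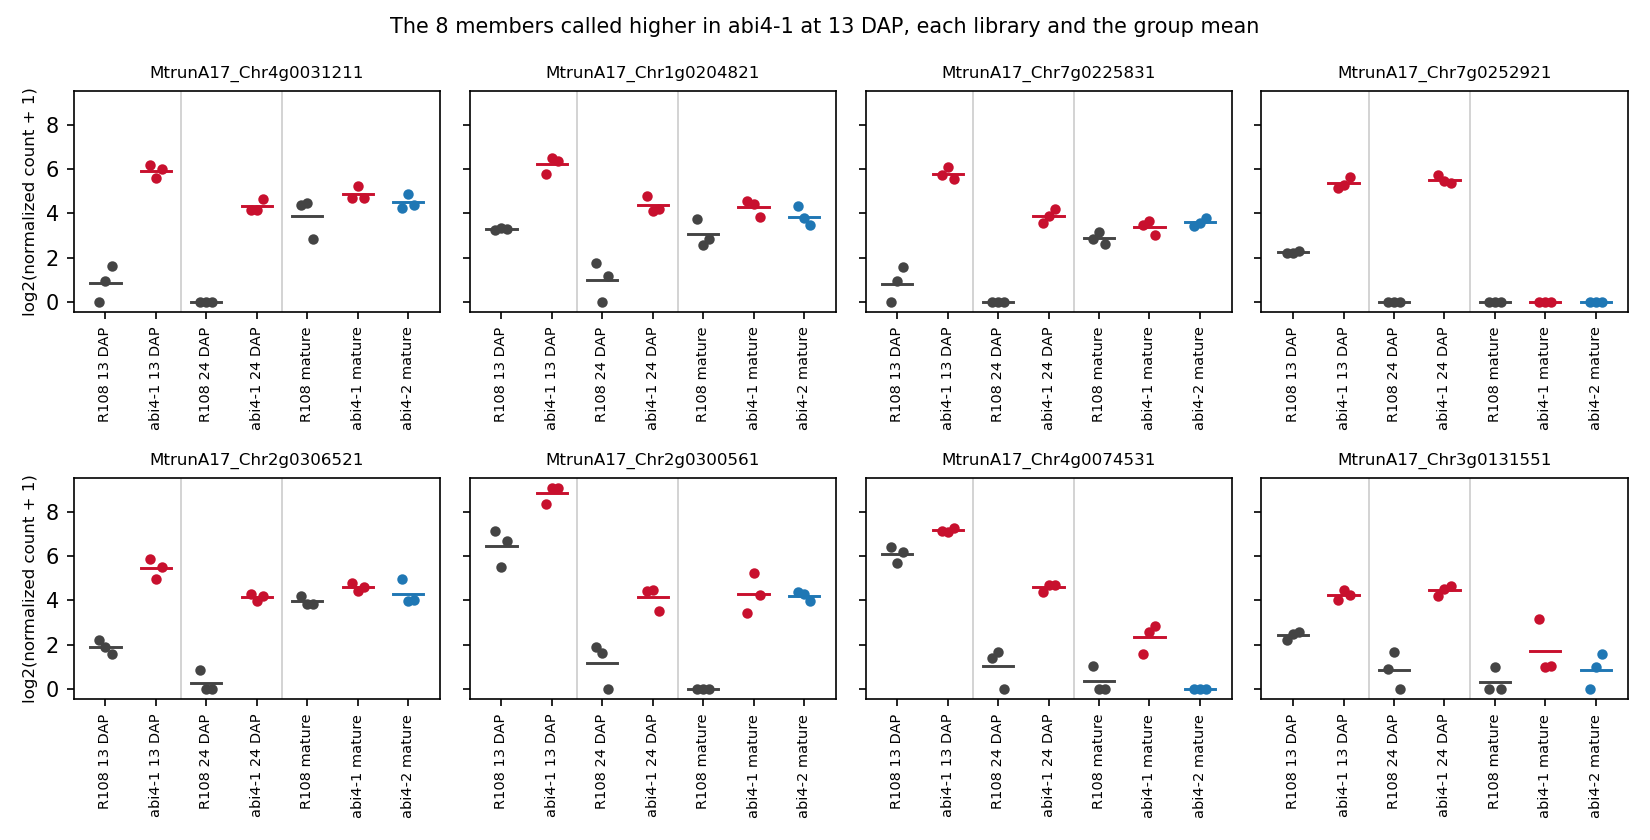
Log2(value + 1) of the 8 members that limma called at 13 DAP, 1 panel each, with 1 point per library in the 7 groups and bars at the group means. At 13 DAP every abi4-1 point lies above every R108 point in each panel, and in mature seeds Chr7g0252921 is at 0 throughout.

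Several abundant members did not pass at 13 DAP. The log2 difference was 0.34 ± 0.41 for Chr1g0204011 (SE; limma adjusted p = 0.818), 0.29 ± 0.46 for Chr5g0404341 (0.876), 0.13 ± 0.42 for Chr7g0245051 (0.947) and 0.19 ± 0.24 for Chr3g0145181 (0.823). For Chr3g0133901 it was 0.87 ± 0.24 (SE; limma adjusted p = 0.134). Of the 15 members at 10 or more in every R108 library at 13 DAP, 2 (Chr2g0300561 and Chr4g0074531) were called higher. Over all 22499 identifiers tested, 1.26% were called higher, and the share among those at the same R108 level was not computed.

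In the opposite direction at 13 DAP, Chr1g0209261 had 12.4, 9.03 and 7.75 in R108 and 7.71, 3.57 and 3.73 in abi4-1, and Chr5g0405731 had 10.8, 12 and 7.97 in R108 and 4.21, 2.78 and 4.67 in abi4-1. R108 lay above abi4-1 without overlap in both, by a narrow margin in the first. Both were below the minimum for the fit and were not tested, and they are named here after their values were seen.

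Mature seeds are the stage at which both mutant lines can be set beside R108, although the omission of 2 transcripts used these libraries and no test is given. The abi4-1 and abi4-2 lines are set against the same 3 R108 libraries. The members summed to 294, 328 and 293 in R108, 805, 1074 and 782 in abi4-1 and 591, 640 and 509 in abi4-2. The 3 groups did not overlap in this sum. Per 1000000 of the library total the sums were 14.4, 16.6 and 14.7 in R108, 40.9, 56.1 and 39.1 in abi4-1 and 30.2, 33.2 and 26.2 in abi4-2.

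Among all identifiers that reached 10 in at least 1 library of the pair, mature abi4-1 lay above R108 without overlap in 27.4% and below in 27.2%, and among the members that reached 10 in 19 of 27 (70.4%) and 3 of 27 (11.1%). For abi4-2 the background was 26.3% above and 25.5% below, and the members gave 11 of 24 (45.8%) and 4 of 24 (16.7%). Between the mutant lines, abi4-1 lay above abi4-2 in 17.1% of all identifiers and 10 of 27 members (37%), and abi4-2 above abi4-1 in 16.3% and 1 of 27 (3.7%). Since these libraries took part in the choice, nothing is read from these shares.

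By level, 11 members were at 10 or more in all libraries of both mutant lines, 18 were below 3 in all libraries of both, and 20 lay between in both. The members highest in mature mutant seeds differed in their level in R108. Chr8g0371891 had 27.2, 41.8 and 31.5 in R108, 83, 128 and 99 in abi4-1 and 58.7, 43.8 and 50.6 in abi4-2. Chr4g0044851 had 11.3, 12 and 11.1 in R108, 103, 109 and 92.5 in abi4-1 and 40.9, 58.5 and 50.9 in abi4-2. Chr1g0191211 had 1.03, 6.9 and 5.05 in R108, 90.4, 173 and 94.1 in abi4-1 and 33, 33.5 and 22 in abi4-2. In all 3 the order was R108, then abi4-2, then abi4-1, with no overlap between neighbours. At 24 DAP these members had 13.3 to 15.6, 11.7 to 18.8 and 11.9 to 20.9 in abi4-1, on the separate scale of that stage. At 13 DAP Chr4g0044851 and Chr1g0191211 were below 3 in both genotypes.

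Chr5g0404361, the member with the highest mean in mature R108 seeds, had 41.5, 40.8 and 36.7 in R108, 29.9, 34.1 and 44.5 in abi4-1 and 50.3, 41.4 and 52 in abi4-2. The 3 genotypes overlapped at this stage, while at 24 DAP it had 1.67, 0 and 1.2 in R108 and 20, 20.9 and 22.2 in abi4-1. Chr3g0078491 had 14.5, 21.2 and 18.1 in mature R108, 5.94, 8.79 and 4.06 in abi4-1 and 1.01, 6.73 and 3 in abi4-2. Both mutant lines lay below R108 here, although at 24 DAP the member had 0.77, 1.11 and 0 in R108 and 17.4, 12.2 and 11.1 in abi4-1. Chr4g0059741, named after its values were seen, was the only member at 10 or more in all libraries of abi4-1 (15.8, 19.6 and 13.2) and below 10 in all of abi4-2 (4.01, 4.88 and 0.99), and 0 members showed the reverse.

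**Figure D5:**
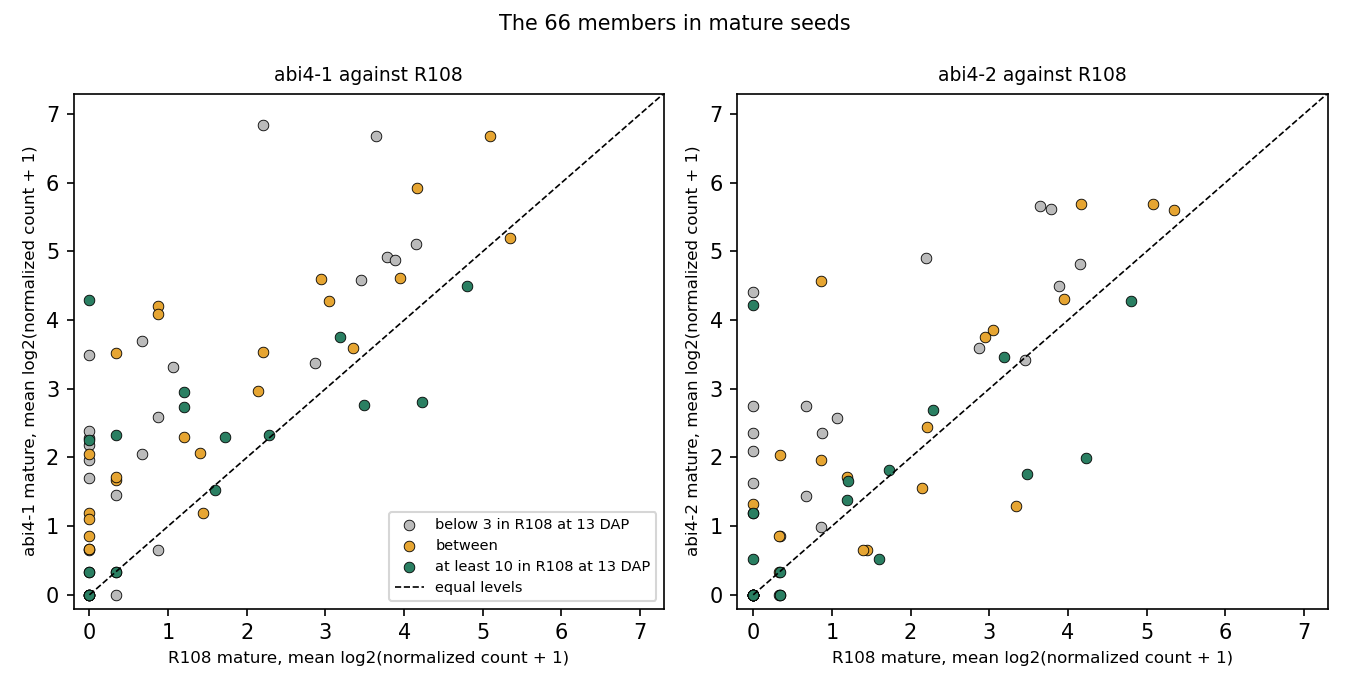
Mean log2(value + 1) in mature seeds of each of the 66 members in abi4-1 (left panel) and abi4-2 (right panel) against R108 (x axis), coloured by the level in R108 at 13 DAP, with a dashed line at equal levels. In the left panel more members lie above the line than below it, and Chr3g0078491 (17.9 in R108) and Chr1g0204011 (27) lie below it in both panels.

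The identifiers carry the chromosome and an order along it, which the choice did not use. Chromosome 3 held 14 members (21.2%, against 14% of all nuclear identifiers), chromosome 7 held 11 (16.7% against 12.8%) and chromosome 8 held 3 (4.55% against 12.2%). Chromosomes 1, 2, 4, 5 and 6 held 9, 7, 7, 8 and 6 members, and 1 was on an unplaced sequence. These shares are descriptions, and distances in bases were not examined.

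Of the members, 4 pairs were direct neighbours in identifier order. Chr1g0152791 had 13, 24 and 10.1 in abi4-1 at 24 DAP, beside 14.9, 14 and 12.7 for Chr1g0152801. Chr5g0440311 had 10.1, 14.2 and 14.3 beside 32.8, 32.1 and 43.9 for Chr5g0440321, and Chr6g0484351 had 14.4, 10.1 and 12.9 beside 11.4, 12.9 and 10.7 for Chr6g0484361. The fourth pair lies in a short stretch of chromosome 3 that held 3 members within 5 identifiers. There Chr3g0083371 had 35.7, 14.2 and 17.5, Chr3g0083421 had 47.7, 44.7 and 52.4, and Chr3g0083431 had 32.8, 10.2 and 20.2. In the first and last of these, replicate 1 was highest and replicate 2 lowest, while Chr3g0083421 varied less. All 3 were below 3 in every R108 library at every stage, and the identifiers between and beside them stayed at or below 2.26 at 24 DAP in both genotypes. A further pair, Chr5g0404341 and Chr5g0404361, had 1 identifier between them. Whether neighbours share reads through similar sequence was not tested, nor is the strand of the reads given in the sources used here.

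The 123 other identifiers next to a member were much like the rest at 24 DAP. Of these, 60 (48.8%, against 47.2% of all nuclear identifiers) reached 10, and among them abi4-1 lay above R108 without overlap in 14 (23.3%, against 17.5%) and below in 11 (18.3%, against 15.6%). Their median log2 difference was 0.06, against -0.01 over all.

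The bounds cut through a continuous range. Chr2g0300561 was nearest to the lower bound from inside, with a highest R108 value of 2.67, and Chr6g0484351 nearest to the upper bound, with a lowest abi4-1 value of 10.1. Just outside, Chr6g0452371 had 3.04, 2.19 and 2.47 in R108 and 43.9, 28.3 and 39.6 in abi4-1, and Chr1g0194671 had 2.58, 2.16 and 0 in R108 and 9.89, 18.1 and 11.5 in abi4-1. Chr6g0452371 was among 67 identifiers with their highest R108 value from 3 to under 5 and abi4-1 at 10 or more. Chr1g0194671 was among 85 with their lowest abi4-1 value from 5 to under 10 and R108 below 3. The omission by mature values had a near case too. In mature seeds Chr2g0300561 was at 0 in R108, at 9.9, 36.3 and 17.6 in abi4-1 and at 19.7, 18.7 and 14.7 in abi4-2. The abi4-1 value of 9.9, just under 10, kept it in the set.

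The 2 transcripts left out because they were on in both mutant lines and off in R108 at maturity differed from each other. At 24 DAP, Chr4g0052001 was listed at 0 in R108 and had 20.8 ± 7.5 in abi4-1 (SD, n = 3). In mature seeds its means were 0.669 ± 1.16 for R108, 572 ± 140 for abi4-1 and 121 ± 16.1 for abi4-2, each mutant mean above that of every member in the same group. At 24 DAP, Chr5g0411911 had 1.03 ± 0.186 in R108 beside 25.4 ± 3.52 in abi4-1. Its mature means were 0.336 ± 0.581 for R108, 16.6 ± 5.6 for abi4-1 and 26 ± 3.68 for abi4-2. At 13 DAP it had 42.2 ± 9.75 in R108 beside 133 ± 11.7 in abi4-1 (SD, n = 3), so it was present in young wild-type seeds.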

How the data were processed

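Per the labels' protocols, mRNA-enriched cDNA from whole seeds was read as short reads on a BGISEQ-500. The submitters' processing notes name Salmon with no version, and neither build nor annotation nor normalization tool is given in the sources used here. Though called FPKM, the deposited values behave as a normalized-count signal that the authors scaled separately per stage. Whole reads were not recovered, so no count model was used. Members of the set and all lists were chosen with earlier results of these data known.

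The sample labels gave the groups and the replicate numbers. The series' design text speaks of seeds from different plants but names lines of another gene (hsfa9), so the sample labels were followed. Where replicates did not come from separate plants, p-values cover only variation between these samples, which may be technical.

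The members were found in Python 3.11.15 (pandas 2.3.3, numpy 2.4.6), without organelle identifiers. Abi4-1 was tested against R108 within 13 DAP with limma 3.58.1 in R 4.3.3 (eBayes with trend) on log2(value + 1), over identifiers with at least 10 in at least 3 of the 6 libraries. Benjamini-Hochberg adjustment was over all identifiers tested, with a threshold of 0.05. The fit was tried on simulated counts with the same dispersion for every gene and no pairing of libraries. Genes near 0 in R108 alone were not simulated, so the trial does not cover members of that kind. Values at 24 DAP and in mature seeds took part in choosing the members and have no test. Same-numbered 13 DAP libraries of the 2 genotypes deviated together from their group means (correlations of 0.293, 0.232 and 0.154), so the numbers were taken to pair the libraries. Unless stated otherwise, the calls and p-values come from the fit that leaves this pairing out. A fit with the number as a block was an alternative and called 834 identifiers, against 554. Errors after ± are SDs for levels and SEs for log2 differences, and depth limits values near 1 read.

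Named were the 10 members highest in abi4-1 at 24 DAP, each called at 13 DAP, the 5 highest in R108 at 13 DAP, in mature R108 and over the mature mutants, neighbouring members, and the identifiers nearest each bound. Other names were added for counts of 5 or fewer. Marker lists by description were not run, since the identifiers have no descriptions here.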

Additional observations from a re-analysis of the deposited data

Results flagged for a closer look

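In 5 members abi4-1 lay above R108 at 24 DAP, where the choice of members fixes the direction, and every abi4-1 library lay below every R108 library at another stage. The difference between the stages was not tested. Over all identifiers that reached 10 in a library of the pair, R108 lay above abi4-1 without overlap in 9.13% at 13 DAP and 27.2% in mature seeds. Among the members that reached 10 these shares were 5.41% and 11.1%. The mature libraries took part in the choice, and at 13 DAP 14 of the 37 members reached 10 only in abi4-1. Nothing is therefore read from these shares. At 13 DAP the abi4-1 minus R108 difference of log2(value + 1) was -0.88 for Chr1g0209261 (3.82 at 24 DAP) and -1.21 for Chr5g0405731 (3.46 at 24 DAP). For Chr1g0209261 the mature difference was 1.10, so its 13 DAP sign was opposite to mature seeds too. In mature seeds the difference was -0.30 for Chr1g0204011 (5.57 at 24 DAP), -1.42 for Chr3g0078491 (3.21 at 24 DAP) and -0.72 for Chr4g0042991 (3.67 at 24 DAP). Chr4g0042991 had 10.4, 11 and 9.25 in mature R108, 8.86, 6.86 and 3.02 in abi4-1 and 3.97, 0.98 and 2.99 in abi4-2. In Chr1g0204011, Chr3g0078491 and Chr4g0042991 the mature abi4-2 libraries also lay below R108 without overlap. Groups of 3 libraries were too small to look for single outlying libraries.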

How the results depend on the processing

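At 13 DAP, 554 identifiers were called by limma, 283 higher (51.1%). With libraries scaled to their column totals 663 were called, 414 higher and 249 lower (62.4% higher). A fit of all 21 libraries called 442 higher. The replicate block, which follows the pairing of the numbers, called 834, of which 461 were higher and 373 lower, and 8 members, 7 of them shared with the fit without it. Leaving out 1 library gave 202 (without abi4-1 replicate 3) to 984 (without R108 replicate 2) calls, 74 to 530 higher and 109 to 454 lower, with 36.6 to 53.9% higher, and 5 (without abi4-1 replicate 2 or 3) to 11 members (without R108 replicate 2). Chr6g0457141 (13.7, 7.24 and 24.2 in R108, 46.1, 46.2 and 53.3 in abi4-1; limma adjusted p = 0.0635) was called in 7 alternatives, the block among them. The size of the set depended on its bounds: 19 members with bounds of 1 and 10, 25 with 3 and 20, and 131 with 5 and 10, against 66. Leaving out 1 library at 24 DAP gave 75 (without abi4-1 replicate 3) to 96 (without R108 replicate 2). Scaling 24 DAP to column totals gave 65 members, 64 of them shared. Why counts moved between settings was not tested.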
